A study of Mus musculus with 6 samples.

Results

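10 genes of macrophages that clear dying cells were followed through the transcriptomes of transplanted blood stem and progenitor cells: Vcam1, Axl, Mertk, Timd4, Cd5l, Mrc1, Siglec1 and the complement C1q chain genes C1qa, C1qb and C1qc. They were picked by gene symbol from the 23228 genes of the deposited FPKM table, and all 10 had a row. Their choice was made with earlier results on these same libraries in view, both the comparison between recipients and the high values in the replicate 1 libraries, so the levels and differences below are descriptions. FPKM scales fragments by transcript length and by the size of the library, which lets levels be compared between genes.

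The cells were donor LSK cells, bone marrow cells without lineage antigens that carry Sca-1 and c-Kit, a fraction rich in stem cells and multipotent progenitors. In every sample the donor cells were wild type and carried Ly5.1, while the recipients carried Ly5.2. The recipients were ICAM-1-/- (3 libraries) or WT (3 libraries), all labelled C57BL/6, and the cells were sorted by flow cytometry 8 weeks after transplantation. ICAM-1 is an adhesion molecule of endothelium, stroma and leukocytes that binds beta2 integrins, and the study asked what its loss in the niche does to transplanted stem cells. The genotype in the sample labels is that of the recipient. The labels give no age, conditioning or pooling of recipients, and nothing says which libraries came from separate recipients beyond the stated number of 3 per group, so the spread between libraries may be partly technical.

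Macrophages of the bone marrow clear apoptotic cells and expelled erythroblast nuclei, a process called efferocytosis. Phosphatidylserine exposed on a dying cell is bound directly by receptors such as Timd4, or through the bridging ligands Gas6 and Pros1 by the TAM receptor kinases Axl, Mertk and Tyro3. C1q, the recognition part of the first complement component, is built from A, B and C chains, is secreted mainly by macrophages and dendritic cells, and coats dying cells for uptake. Vcam1, Siglec1, Mrc1 and Cd5l are used as marks of tissue-resident macrophages, although Vcam1 is also made by endothelium and stroma.

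The libraries were uneven, and both replicate 1 libraries stood apart. Small RNA genes held 55.1%, 30.2% and 44.5% of all FPKM in ICAM-1-/- recipients and 72.1%, 26.1% and 32.5% in WT replicates 1, 2 and 3. The number of genes listed at 0 was 9308 to 12990 in the ICAM-1-/- libraries and 10167 to 16716 in the WT libraries, with the most in WT replicate 1. Gapdh, a glycolytic enzyme that every cell uses, was listed at 0 in WT replicate 1, so a 0 is reported here only as listed at 0. Xist, which coats the inactive X chromosome, reached 73.5 FPKM in ICAM-1-/- replicate 1 and 241 FPKM in WT replicate 1, while the other 4 libraries lay between 0.0487 and 0.153 FPKM. Ddx3y, a gene of the Y chromosome, was listed at 0 in both replicate 1 libraries, while the other 4 lay between 2.30 and 12.3 FPKM. By these genes the replicate 1 libraries had the pattern of female cells and the other 4 that of male cells, and this difference cannot be told apart from replicate number. Where 3 values are given for a group, they are those of replicates 1, 2 and 3 in that order. Read depth is unknown, and no interval for counting error can be given.

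All 10 genes were highest in the replicate 1 library from a WT recipient and next highest in the replicate 1 library from an ICAM-1-/- recipient. Of the 10477 genes averaging 1 FPKM or more, 927 (8.85%) had that order, and 1402 (13.4%) had both replicate 1 libraries above the other 4. Both replicate 1 libraries reached at least 4 times the highest of the other 4 in all 10 members and in 115 of the 10477 genes (1.10%), a fold chosen after the values were seen. A filter on the mean of all libraries lets in genes through high replicate 1 values. The pattern of both replicate 1 libraries above the other 4 is therefore counted below over another base. It holds the 10300 genes that average 1 FPKM or more in those other 4. Of these, 1253 (12.2%) had the pattern and 31 (0.301%) reached at least 4 times in both. Only 7 of the 10 members belong to this base, which too was chosen after the values were seen. Summed over the 10 genes, the level was 845, 12.2 and 110 FPKM in ICAM-1-/- recipients and 2142, 80.6 and 23.4 FPKM in WT recipients. As a share of the FPKM outside small RNA genes, these sums came to 0.348%, 0.00460% and 0.0247% in ICAM-1-/- replicates 1, 2 and 3 and to 1.23%, 0.0218% and 0.00654% in WT replicates 1, 2 and 3. The high level in the replicate 1 libraries was thus present on a scale that leaves the small RNA genes out. Which cells made these transcripts was not tested, and in such bulk samples more such cells and more RNA per cell cannot be told apart. Replicate number cannot be told apart from whatever else distinguished those libraries.

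**Figure D1:**
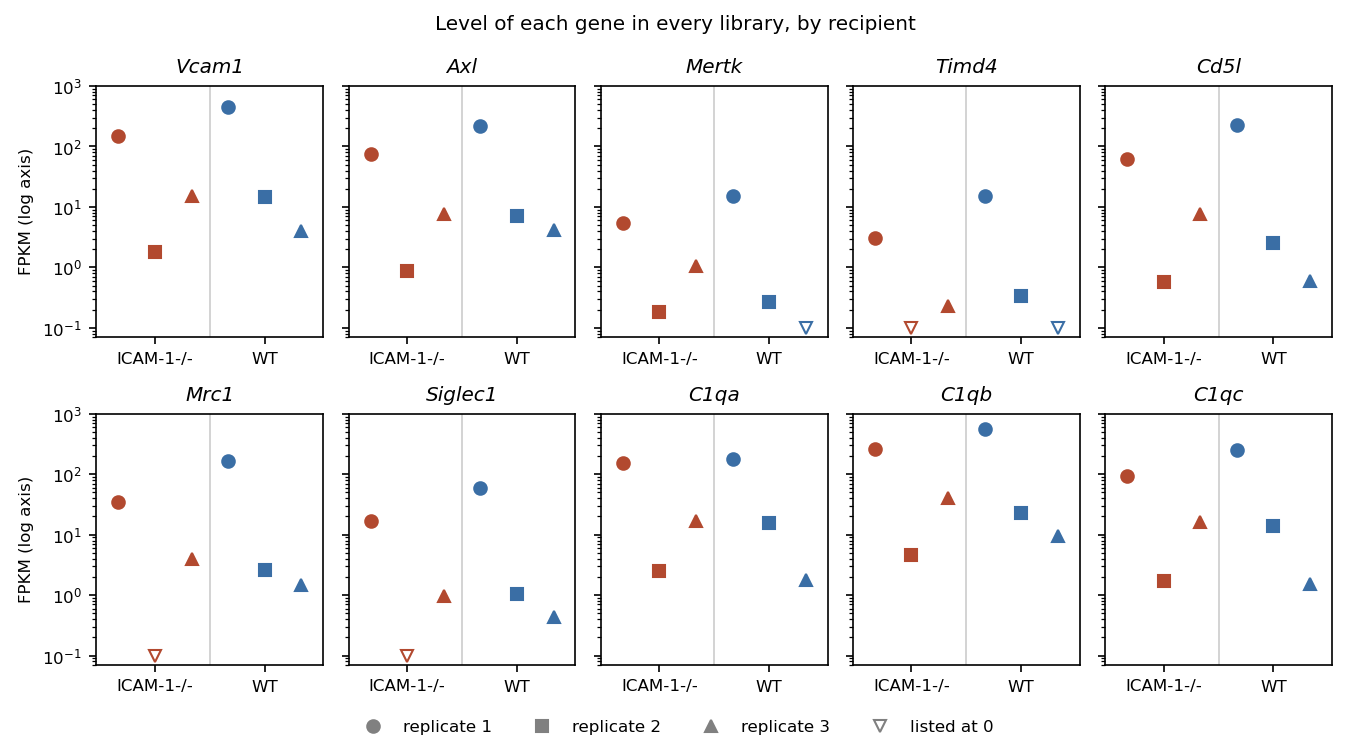
FPKM of each of the 10 genes on a log axis, with ICAM-1-/- recipients left of WT recipients in each panel and 1 point per library; circles, squares and filled triangles mark replicates 1, 2 and 3, and open triangles at the bottom mark values listed at 0. In every panel both circles lie above the other 4 points, and the WT circle lies above the ICAM-1-/- circle.

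The genes were not equally abundant. By mean log2(FPKM + 1) over the 6 libraries the order was C1qb at 5.50, Vcam1 at 4.63, C1qa at 4.37, C1qc at 4.22, Axl, Cd5l, Mrc1, Siglec1, Mertk at 1.39 and Timd4 at 1.13. Compared within libraries, C1qb exceeded Vcam1 by 0.87 ± 0.37 (SD over 6 libraries) and was above it in 6 of 6. Mrc1 exceeded Siglec1 by 0.90 ± 0.51 (SD over 6 libraries) and was above it in 5 of 6. No other neighbours in this order differed by more than the SD of their gap.

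Among all 23228 genes ranked by FPKM, C1qb held place 106 in ICAM-1-/- replicate 1 and place 22 in WT replicate 1. Vcam1 held place 224 in ICAM-1-/- replicate 1 and place 32 in WT replicate 1. In the other 4 libraries C1qb lay between places 1369 and 4195, and Vcam1 between places 3043 and 7032. C1qb and Vcam1 were thus among the most abundant transcripts of the replicate 1 libraries and of lower rank elsewhere. Timd4, by contrast, held place 7881 in ICAM-1-/- replicate 1 and place 2846 in WT replicate 1.

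Of Axl, Mertk and Timd4, the 3 receptors of dying cells among the 10, Axl was the most abundant. This TAM kinase, which uses Gas6 as its ligand, stood at 75.8, 0.886 and 7.54 FPKM in ICAM-1-/- recipients and at 218, 6.95 and 4.22 FPKM in WT recipients. Its groups overlapped, with the highest value in WT and the lowest in ICAM-1-/-. Mertk, the TAM kinase that macrophages use for routine clearance, stood at 5.48, 0.184 and 1.07 FPKM in ICAM-1-/- recipients and at 15.3, 0.268 and 0 FPKM in WT recipients. Axl exceeded Mertk in 6 of 6 libraries, with a ratio of 4.82 to 13.8 in ICAM-1-/- recipients and of 14.2 and 25.9 in the WT libraries where Mertk was above 0. Tyro3, the remaining member of the TAM family, was listed at 0 in both replicate 1 libraries and did not exceed 2.26 FPKM in any of the 6. Tyro3, Gas6 and Pros1 were named after their values were seen.

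Timd4, a phosphatidylserine receptor of resident macrophages, was the lowest of the 10 by mean. It stood at 3.06, 0 and 0.231 FPKM in ICAM-1-/- recipients and at 15.3, 0.334 and 0 FPKM in WT recipients. Only the replicate 1 libraries held it above 1 FPKM. Of the ligands that bridge the TAM receptors to dying cells, Gas6 stood at 2.53, 0 and 0.781 FPKM in ICAM-1-/- recipients and at 21.4, 0.402 and 0.105 FPKM in WT recipients. Pros1 was instead listed at 0 in WT replicate 1, where Gas6 was highest, and reached 4.76 FPKM in ICAM-1-/- replicate 1 and at most 1.05 FPKM in the other 4.

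The marks of resident macrophages were likewise highest in the replicate 1 libraries, at very different heights. Vcam1, an adhesion molecule that binds alpha4 integrins, stood at 146, 1.78 and 15.1 FPKM in ICAM-1-/- recipients and at 449, 14.7 and 3.95 FPKM in WT recipients. Mrc1, the mannose receptor, stood at 34.5, 0 and 3.93 FPKM in ICAM-1-/- recipients and at 163, 2.59 and 1.48 FPKM in WT recipients. For both genes the replicate 3 library from an ICAM-1-/- recipient lay above both lower WT libraries, while replicate 2 lay below them. Siglec1, the sialic acid receptor also called CD169, stood at 16.6, 0 and 0.976 FPKM in ICAM-1-/- recipients and at 59.0, 1.04 and 0.433 FPKM in WT recipients. Siglec1 had the widest step of the 10, with ICAM-1-/- replicate 1 at 16.0 times and WT replicate 1 at 56.8 times the highest of the other 4 libraries. Cd5l, a secreted scavenger-receptor protein of macrophages also called AIM, stood at 62.2, 0.577 and 7.67 FPKM in ICAM-1-/- recipients and at 227, 2.53 and 0.585 FPKM in WT recipients. Its groups overlapped, with ICAM-1-/- replicate 3 above and ICAM-1-/- replicate 2 just below the lower WT libraries.

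The C1q chain genes were of similar order of magnitude within each library, with C1qb the highest in 6 of 6. C1qa, the A chain, stood at 151, 2.48 and 16.8 FPKM in ICAM-1-/- recipients and at 178, 15.5 and 1.78 FPKM in WT recipients. C1qb, the B chain, stood at 258, 4.59 and 40.7 FPKM in ICAM-1-/- recipients and at 570, 22.6 and 9.45 FPKM in WT recipients. C1qc, the C chain, stood at 91.7, 1.73 and 16.4 FPKM in ICAM-1-/- recipients and at 248, 14.0 and 1.55 FPKM in WT recipients. The groups overlapped for all 3 chain genes. C1qa was above C1qc in 5 of 6 libraries, the exception being WT replicate 1.

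As a share of the summed C1q level, C1qb made up 51.6%, 52.2% and 55.1% in ICAM-1-/- replicates 1, 2 and 3 and 57.2%, 43.3% and 73.9% in WT replicates 1, 2 and 3. The C1qa share was 30.1%, 28.2% and 22.7% in ICAM-1-/- and 17.9%, 29.8% and 13.9% in WT replicates 1, 2 and 3. The C1qc share ranged from 18.3% to 22.2% in ICAM-1-/- and from 12.1% to 26.9% in WT. The sum itself was 501, 8.80 and 73.9 FPKM in ICAM-1-/- recipients and 996, 52.2 and 12.8 FPKM in WT recipients, so the proportions of the chains varied far less than their total. These FPKM shares describe transcripts, and C1q protein was not measured.

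**Figure D2:**
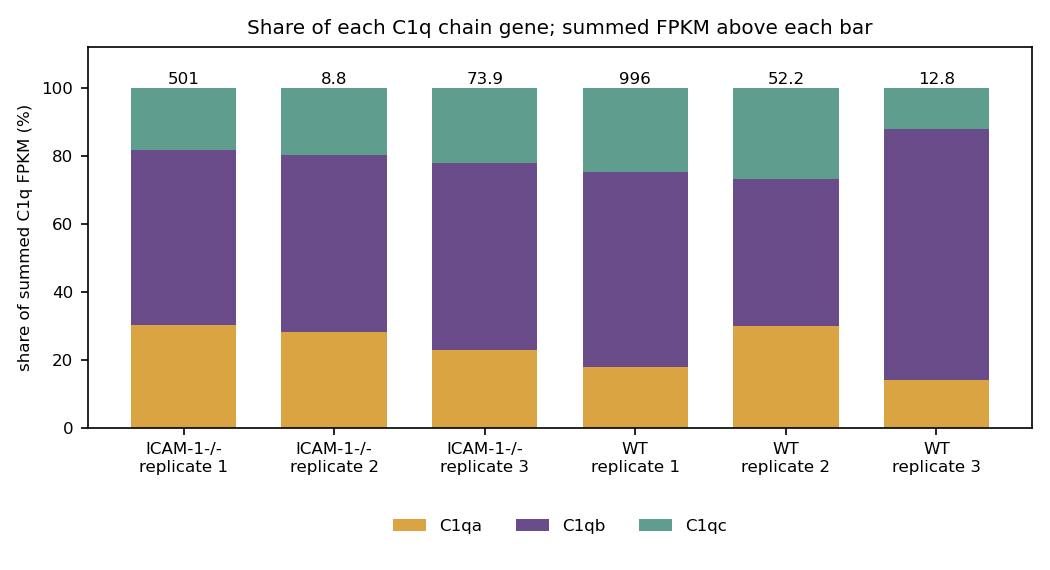
Share of the summed C1q FPKM, in percent, held by C1qa, C1qb and C1qc in each library, with ICAM-1-/- recipients left of WT recipients and the summed FPKM printed above each bar. C1qb holds the largest share in every bar, from 43.3% in WT replicate 2 to 73.9% in WT replicate 3.

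C1qb, C1qc and C1qa lie next to each other on the minus strand of chromosome 4 in the GENCODE M21 gene order, with no other coding gene between them. Mrc1, Mertk and Siglec1 are on chromosome 2, Vcam1 and Cd5l on chromosome 3, Axl on chromosome 7 and Timd4 on chromosome 11. RefSeq promoter windows, 250 bases before to 50 bases after the start on build GRCm38.p6, were at hand for 7 of the 10 genes. Both strands of these windows were searched for 13 short motifs, among them motifs of factors active in macrophages, a GATA motif and the TATA box. Of the 13, 9 were in none of the 7. The 4 windows shown hold GGAAGT, the core of the motif of Spi1, a master factor of macrophages, together with the E-box CATGTG; capitals mark these motifs on either strand and, where they occur, GAGGAAGT and TGCTGAC, a MAF half-site. The windows are C1qb at chr4:136886151-136886450 (minus strand), C1qc at chr4:136892865-136893164 (minus strand), Mrc1 at chr2:14229164-14229463 (plus strand) and Timd4 at chr11:46810549-46810848 (plus strand).
C1qb: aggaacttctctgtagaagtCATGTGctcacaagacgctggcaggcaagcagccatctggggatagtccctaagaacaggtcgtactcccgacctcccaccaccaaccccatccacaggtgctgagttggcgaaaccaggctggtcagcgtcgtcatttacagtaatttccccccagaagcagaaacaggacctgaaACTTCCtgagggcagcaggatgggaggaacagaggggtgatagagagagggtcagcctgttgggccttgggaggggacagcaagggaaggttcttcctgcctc
C1qc: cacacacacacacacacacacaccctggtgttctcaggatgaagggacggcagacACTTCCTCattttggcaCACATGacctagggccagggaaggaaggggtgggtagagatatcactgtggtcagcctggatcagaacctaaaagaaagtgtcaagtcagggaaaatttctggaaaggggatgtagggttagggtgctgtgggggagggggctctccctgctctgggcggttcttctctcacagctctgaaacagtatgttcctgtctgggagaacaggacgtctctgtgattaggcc
Mrc1: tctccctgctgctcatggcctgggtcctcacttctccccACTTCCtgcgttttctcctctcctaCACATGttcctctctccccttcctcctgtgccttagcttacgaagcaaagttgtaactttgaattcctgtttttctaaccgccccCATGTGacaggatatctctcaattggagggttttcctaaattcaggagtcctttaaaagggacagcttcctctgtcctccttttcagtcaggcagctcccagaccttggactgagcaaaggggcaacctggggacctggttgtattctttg
Timd4: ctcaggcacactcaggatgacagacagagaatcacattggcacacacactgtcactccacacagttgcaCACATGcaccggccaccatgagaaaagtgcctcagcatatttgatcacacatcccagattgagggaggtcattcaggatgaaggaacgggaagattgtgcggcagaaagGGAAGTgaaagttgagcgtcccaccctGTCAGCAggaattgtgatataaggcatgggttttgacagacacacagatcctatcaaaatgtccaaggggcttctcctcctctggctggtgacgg

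GGAAGT was in 23.8% and CATGTG in 14.2% of all 32851 windows of the same length, and 1007 windows (3.07%) held both. This pair was singled out after the matches in the 7 windows were seen, so nothing is read from its share. The longer Spi1 motif GAGGAAGT, which overlaps GGAAGT, was in the C1qc window and in 3.20% of all windows. TGCTGAC was in the Timd4 window and in 4.67% of all windows. The motifs found in none of the 7 were the E-box CACGTG (7.15% of all windows), the LXR element of 2 direct repeats (0.0152%), a longer and a shorter NF-kB motif (0.155% and 0.323%), the AP-1 motif TGANTCA (7.81%), the C/EBP motif TTGCNNAA (10.8%), the GATA motif AGATAA (11.2%), an IRF element (3.44%) and the TATA box TATAAA (13.6%). The windows of Axl, Cd5l and Mertk held none of the 13. A match describes letters in a window and was not tested for binding.

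Comparing the donor cells by recipient, 9 of the 10 genes had a lower mean log2(FPKM + 1) in ICAM-1-/- and 1 a higher one, none by more than its error. The differences ran from -1.02 ± 1.66 (SE) for Mrc1 and -0.96 ± 1.56 for Axl to 0.06 ± 1.57 for C1qa, with a median of -0.56 beside a median of 0.08 over all 10477 genes tested. Vcam1 differed by -0.80 ± 1.68 (SE), C1qb by -0.41 ± 1.57 and C1qc by -0.37 ± 1.61. The SD within groups on this scale was 1.74 to 3.31 for the 10 genes, above the median of 1.09 over all genes in 10 of 10 and above the 95th percentile of 2.35 in 8 of 10. For each of these genes the difference between recipients was smaller than the SD within groups. The genes were chosen with their high replicate 1 values in view. A wide spread within groups was thus built into the choice, and nothing is read from it.

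In a limma fit across all 10477 genes none of the 10 passed an adjusted p of 0.05, and neither did any other gene (0 of 10477 genes, 0%). An unadjusted p under 0.05 was found for 54 genes (0.515%), of which 44 were higher in ICAM-1-/- recipients, and for 0 of the 10. A fit that kept the replicate number as a block gave 13 calls in limma (0.124%), of which 11 were higher and 2 lower, and 0 were among the 10. The values of the groups did not overlap for 427 genes (4.08%) and for 0 of the 10. All 10 passed the filter on low values, but 7 of 10 would do so on the other 4 libraries alone, where Mertk, Timd4 and Siglec1 averaged 0.380, 0.141 and 0.612 FPKM. Because the genes were chosen with this contrast known, nothing is read from these counts.

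The direction of the difference changed when WT replicate 1 or ICAM-1-/- replicate 2 was left out, and the 4 other omissions kept it lower for 8 to 10 of the 10. Without WT replicate 1 all 10 genes were higher in ICAM-1-/- recipients, by 0.57 for Timd4 to 2.01 for Cd5l on the log2 scale, beside a median of -0.15 over all genes. Without ICAM-1-/- replicate 1 all 10 were lower, by -0.81 for Mertk to -2.38 for Axl, beside a median of 0.00 over all genes. Without WT replicate 2 or WT replicate 3 all 10 were lower as well, with medians of -1.12 and -1.67. Without ICAM-1-/- replicate 2 there were 9 higher and 1 lower, with values from -0.32 to 1.36 and a median over all genes of 0.46. Without ICAM-1-/- replicate 3 there were 8 lower and 2 higher, with values from -0.93 to 0.19 and a median of -0.43. Within replicates 2 and 3, which leave both replicate 1 libraries out, 6 genes were lower and 4 higher, with a median of -0.05 beside -0.30 over all genes. There Cd5l differed by 0.65, Mertk by 0.47, C1qb by -0.04, Vcam1 by -0.39 and Axl by -0.68. None of the 10 passed limma's adjusted p in any of these fits. Weighting the libraries by limma's estimate of their quality also turned the 10 differences positive, to between 0.43 and 2.31.

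**Figure D3:**
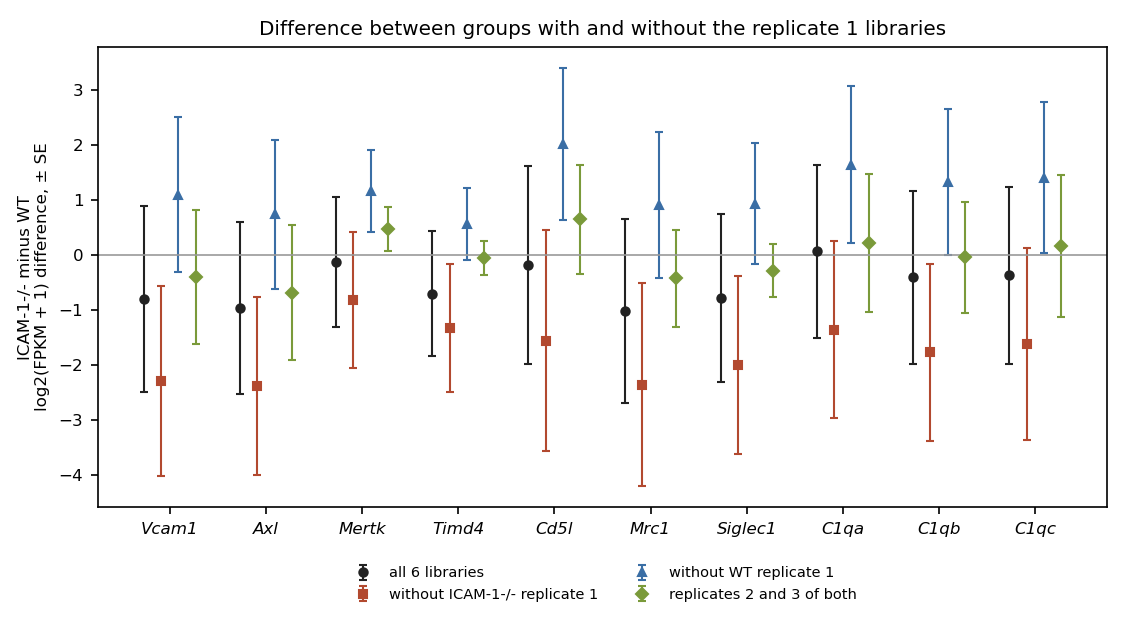
Difference of ICAM-1-/- minus WT recipients on the log2(FPKM + 1) scale for each gene, as points with SE bars, over all 6 libraries, without ICAM-1-/- replicate 1, without WT replicate 1, and within replicates 2 and 3. The points lie below 0 for 10 of 10 genes without ICAM-1-/- replicate 1 and above 0 for 10 of 10 without WT replicate 1.

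Set against the library of the same replicate number, the 10 genes all lay on 1 side, which changed with the number. In replicate 1 the ICAM-1-/- library was below the WT library for 10 of 10 genes, at 0.201 times the WT level for Timd4 to 0.848 times for C1qa, with a median ratio of 0.337. Of all 10477 genes, 59.96% were higher and 32.4% lower in that ICAM-1-/- library. The members thus lay on the side of the minority there.

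In replicate 2 the ICAM-1-/- library was again lower for 10 of 10, with a median ratio of 0.160 over the 7 genes above 0 in both libraries, and 82.5% of all genes were lower there as well. In replicate 3 the ICAM-1-/- library was higher for 10 of 10, with a median ratio of 4.07 over the 8 genes above 0 in both and ratios of 1.79 for Axl, 10.6 for C1qc and 13.1 for Cd5l, and 83.1% of all genes were higher there. In replicates 2 and 3 the members therefore lay on the side of most genes. ICAM-1-/- replicate 2 was lowest or tied lowest for 7 of the 10 members and for 44.5% of all genes tested.

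Other genes of efferocytosis gave no call between the recipients, and in the 4 lists described here 0 genes had an unadjusted p under 0.05 in limma. Of 25 bridging molecules and phagocytic receptors 16 could be tested and 0 passed limma's adjusted p, with 5 higher and 11 lower and a median difference of -0.18 beside 0.08 over all genes. Itgb5, an integrin subunit that binds the bridging protein Mfge8, stood at 20.9, 2.07 and 6.49 FPKM in ICAM-1-/- recipients and at 30.8, 5.59 and 3.32 FPKM in WT recipients, the library order of Vcam1. Lrp1, a scavenger receptor that engages the C1q receptor calreticulin, stood at 35.9, 0.688 and 2.71 FPKM in ICAM-1-/- recipients and at 37.7, 2.77 and 1.10 FPKM in WT recipients. The bridging protein gene Mfge8 was not highest in the replicate 1 libraries, with 9.06, 2.30 and 16.4 FPKM in ICAM-1-/- recipients and 0, 17.7 and 19.0 FPKM in WT recipients. Scarb1, a lipoprotein receptor that also binds phosphatidylserine, ranged from 4.56 to 31.4 FPKM in ICAM-1-/- recipients and from 16.3 to 26.6 FPKM in WT, above Axl in 4 of 6 libraries. Of the 11 listed genes that average 1 FPKM or more in the other 4 libraries, 4 had both replicate 1 libraries above them. The share over all 10300 such genes, 12.2%, stands beside this count and those of the lists below.

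Of 30 engulfment and phagosome digestion genes 28 could be tested and 0 passed, with 11 higher and 17 lower and a median of -0.23. Both replicate 1 libraries were above the other 4 in 10 of the 28 genes that average 1 FPKM or more in those 4. The lysosomal protease Ctsd stood at 365, 61.2 and 172 FPKM in ICAM-1-/- recipients and at 501, 107 and 102 FPKM in WT recipients. Ctsb, another lysosomal protease, stood at 158, 12.7 and 55.8 FPKM in ICAM-1-/- recipients and at 343, 56.3 and 37.4 FPKM in WT recipients. The protease gene Ctss and the lysosomal membrane gene Lamp1 were likewise highest in the replicate 1 libraries, at 115 and 154 FPKM in ICAM-1-/- and at 181 and 234 FPKM in WT. These lysosomal genes were at 12.7 FPKM or more in all 6 libraries, whereas 3 of the 10 efferocytosis and C1q genes were listed at 0 in ICAM-1-/- replicate 2.

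Of 33 other complement genes 16 could be tested and 0 passed, with 8 higher and 8 lower and a median of 0.00; 8 of the 33 were listed at 0 in all 6 libraries. Fcna, a ficolin that starts the lectin pathway and is made by macrophages, stood at 82.3, 0.850 and 12.3 FPKM in ICAM-1-/- recipients and at 207, 6.51 and 2.71 FPKM in WT recipients, the library order of C1qb. Cfp, which encodes properdin, the stabilizer of the alternative pathway convertase, stood at 89.3, 25.2 and 29.0 FPKM in ICAM-1-/- recipients and at 124, 21.4 and 15.2 FPKM in WT recipients. Cd93, a surface lectin of stem and endothelial cells once proposed as a C1q receptor, ranged from 26.6 to 54.2 FPKM in ICAM-1-/- recipients and from 38.5 to 79.6 FPKM in WT. Calr, the chaperone calreticulin that also serves as a C1q receptor on the cell surface, ranged from 161 to 421 FPKM in ICAM-1-/- recipients and from 142 to 346 FPKM in WT, with its lowest value in WT replicate 1. Both replicate 1 libraries lay above the other 4 in 6 of the 14 genes that average 1 FPKM or more in those 4.

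Of 24 macrophage transcription factors 23 could be tested and 0 passed, with 10 higher and 13 lower and a median of -0.22. Both replicate 1 libraries were above the other 4 in 6 of the 19 genes that average 1 FPKM or more in those 4. The most abundant of the list, Irf8, Cebpb, Cebpa and Sfpi1 (the older symbol of Spi1), are also expressed by myeloid progenitors. Irf8 stood at 170, 26.3 and 136 FPKM in ICAM-1-/- recipients and at 194, 156 and 129 FPKM in WT recipients. Sfpi1 stood at 90.5, 13.7 and 61.2 FPKM in ICAM-1-/- recipients and was listed at 0 in WT replicate 1, and had 53.2 and 42.3 FPKM in the other WT libraries. Cebpb was highest in ICAM-1-/- replicate 1, at 245 FPKM, and ranged from 33.4 to 57.7 FPKM in WT. Spic, a factor of red pulp and bone marrow macrophages that was named after its values were seen, was likewise highest in the replicate 1 libraries, with 11.5, 0 and 1.49 FPKM in ICAM-1-/- recipients and 50.8, 0.796 and 0 FPKM in WT recipients.

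The nearest genes in pattern were found by Pearson's r of log2(FPKM + 1) over the 6 libraries, as a description that rests on the replicate 1 libraries. To the mean of C1qa, C1qb and C1qc the closest were Vhl at 0.9995, Apoe at 0.997, Pdpr at 0.994, and Zfp748 and Lsm1 at 0.992 each. Apoe, the apolipoprotein that macrophages secrete, stood at 275, 20.3 and 69.6 FPKM in ICAM-1-/- recipients and at 467, 52.5 and 15.8 FPKM in WT recipients. Vhl, the substrate receptor of an E3 ubiquitin ligase, was alike in shape only, with 6.42 to 13.1 FPKM in ICAM-1-/- recipients and 6.60 to 14.4 FPKM in WT. To the mean of the other 7 members the closest were Myo10 at 0.998 and Bdp1, Slco2b1, Sdc3 and Fcgr1 at 0.997 each. Fcgr1, the high-affinity IgG receptor of macrophages, stood at 3.78, 0 and 0.730 FPKM in ICAM-1-/- recipients and at 8.40, 0.397 and 0.305 FPKM in WT recipients. Sdc3, a cell-surface proteoglycan, stood at 53.0, 0.735 and 4.49 FPKM in ICAM-1-/- recipients and at 139, 4.17 and 2.07 FPKM in WT recipients.

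Marker genes of whole macrophages followed the 10 genes in part. Of the 13 macrophage markers that average 1 FPKM or more in the other 4 libraries, 7 had both replicate 1 libraries above them, and of 17 tested markers 0 passed limma's adjusted p between recipients. Csf1r, the receptor of the macrophage growth factor, stood at 76.6, 4.58 and 20.3 FPKM in ICAM-1-/- recipients and at 104, 22.0 and 18.8 FPKM in WT recipients. Emr1, the older symbol of the F4/80 gene, and Cd163, the hemoglobin scavenger receptor, were named after their values were seen. Emr1 stood at 22.8, 8.00 and 3.59 FPKM in ICAM-1-/- recipients and at 68.0, 2.38 and 2.92 FPKM in WT recipients. Cd163 stood at 19.6, 0.337 and 2.79 FPKM in ICAM-1-/- recipients and at 76.0, 2.52 and 3.34 FPKM in WT recipients. Tyrobp and Lyz2, which monocytes and granulocytes also express, did not share the pattern, with 288 to 448 and 97.4 to 191 FPKM in ICAM-1-/- recipients and 284 to 390 and 107 to 227 FPKM in WT. Marco was listed at 0 in all 6 libraries, and Vsig4 and Clec4f in all but ICAM-1-/- replicate 3, where they stood at 0.163 and 0.0846 FPKM. Fcgr3 was lowest in WT replicate 1, at 13.0 FPKM, and Itgam and Aif1 were listed at 0 there. Fcgr3, Itgam and Aif1 were named after their values were seen. The sum of the 20 macrophage markers was 847, 491 and 851 FPKM in ICAM-1-/- recipients and 1097, 780 and 513 FPKM in WT recipients. By this sum replicate 1 was highest in WT but not in ICAM-1-/- recipients. Tyrobp and Lyz2, which did not share the pattern, weigh heavily in it. Tyrobp gave 301, 288 and 448 FPKM of it in ICAM-1-/- recipients and 359, 390 and 284 FPKM in WT. Lyz2 gave 97.4, 141 and 191 FPKM in ICAM-1-/- recipients and 121, 227 and 107 FPKM in WT.

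The sums of erythroid and stromal markers were also highest in the replicate 1 libraries, and their part in the values of the 10 genes was not tested. The sum of 12 erythroid markers was 665, 26.0 and 125 FPKM in ICAM-1-/- recipients and 1830, 76.6 and 150 FPKM in WT recipients. Of the 10 erythroid genes that average 1 FPKM or more in the other 4 libraries, 3 had both replicate 1 libraries above them, beside 12.2% of all such genes. The beta-globin gene Beta-s alone gave 486 FPKM of that sum in ICAM-1-/- replicate 1 and 1387 FPKM in WT replicate 1. The sum of 14 stromal markers was 14.8, 1.73 and 9.11 FPKM in ICAM-1-/- recipients and 46.2, 6.16 and 5.55 FPKM in WT, while Pdgfra, Bglap, Adipoq, Lum and Dcn were listed at 0 in all 6. Col1a1 alone gave 24.6 FPKM of the stromal sum in WT replicate 1, against 0.847 FPKM in ICAM-1-/- replicate 1. Cxcl12, a chemokine of marrow stroma, stood at 6.04, 0 and 0.489 FPKM in ICAM-1-/- recipients and at 8.37, 0.204 and 0.195 FPKM in WT recipients. Pdgfrb, a receptor of perivascular cells, was the only stromal marker to average 1 FPKM or more in the other 4 libraries and was listed at 0 in both replicate 1 libraries. The sum of 14 endothelial markers was 7.02 to 53.6 FPKM in ICAM-1-/- recipients and 34.9 to 48.6 FPKM in WT, with Lyve1 listed at 0 in all 6. Of the 6 endothelial genes that average 1 FPKM or more in the other 4 libraries, 0 were highest in both replicate 1 libraries, beside 12.2% of all such genes. Pecam1, the endothelial adhesion molecule CD31 that blood progenitors also carry, stood at 21.8, 4.29 and 25.4 FPKM in ICAM-1-/- recipients and at 9.59, 22.2 and 22.7 FPKM in WT recipients. Vcam1 alone, at 146 FPKM in ICAM-1-/- replicate 1 and 449 FPKM in WT replicate 1, exceeded the summed stromal or endothelial markers there. Levels of different genes do not tell which cells made Vcam1, and its source was not tested.

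Markers of the sorted LSK cells did not follow the 10 genes. None of the 14 LSK markers that average 1 FPKM or more in the other 4 libraries had both replicate 1 libraries above the other 4. Their sum over 15 genes was 232, 391 and 620 FPKM in ICAM-1-/- recipients and 202, 282 and 379 FPKM in WT recipients, lowest in the replicate 1 library of each group. The stem cell factor receptor gene Kit, named after its values were seen, measured 6.88, 16.2 and 44.7 FPKM in ICAM-1-/- recipients and 10.2, 24.2 and 28.7 FPKM in WT recipients. Ly6a, which encodes Sca-1, and the progenitor antigen gene Cd34 stood at 34.3 and 58.6 FPKM in ICAM-1-/- replicate 1. In WT replicate 1 Ly6a was listed at 0 and Cd34 stood at 0.0203 FPKM. Other LSK markers went the other way. Ptprc and Mecom were highest in WT replicate 1, at 93.2 and 5.93 FPKM. Slamf1 was highest in ICAM-1-/- replicate 1, at 3.71 FPKM. Ptprc, Mecom and Slamf1 were named after their values were seen. Among genes that average 1 FPKM or more in the other 4, mature neutrophil markers had both replicate 1 libraries highest in 0 of 12. The counts were 3 of 13 for monocyte and dendritic cell markers and 1 of 6 for lymphocyte markers, beside 12.2% over all such genes.

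**Figure D4:**
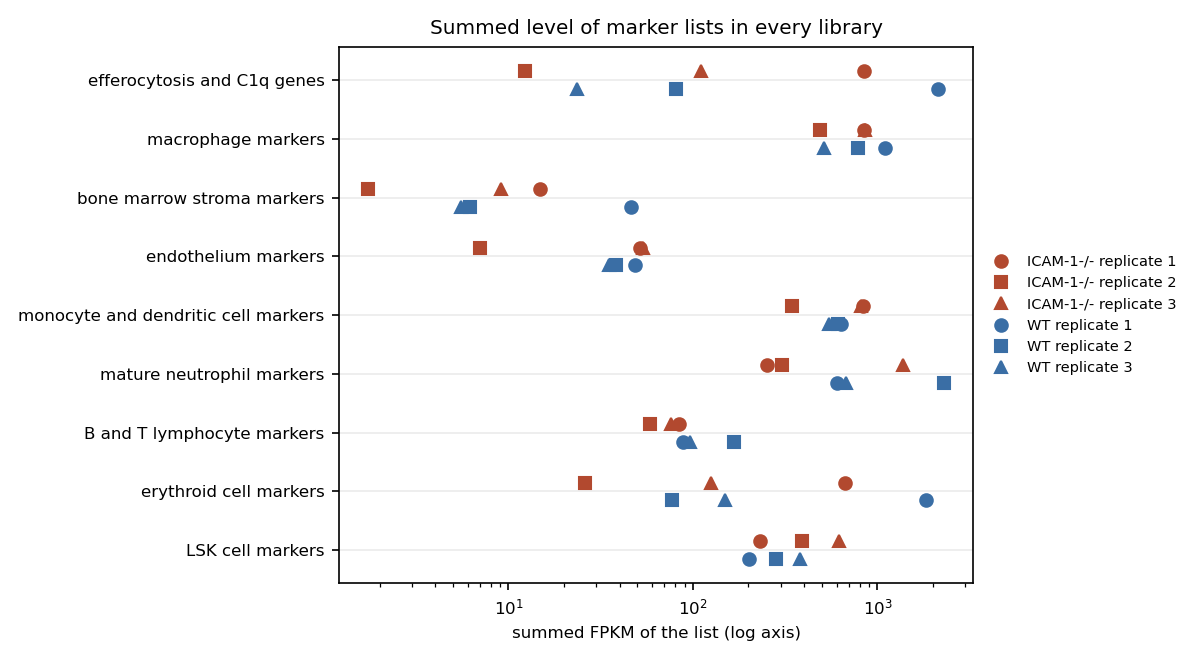
Summed FPKM of the 10 efferocytosis and C1q genes and of 8 marker lists, on a log axis, with 1 point per library and ICAM-1-/- recipients above WT recipients in each row. The circles of replicate 1 lie far to the right for the 10 genes, at 845 FPKM in ICAM-1-/- recipients and 2142 FPKM in WT, and for the erythroid markers. They lie furthest left of their group for the LSK markers and for the mature neutrophil markers.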

How the data were processed

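RNA of donor LSK cells was sequenced in 6 libraries, made with the Illumina TruSeq RNA kit from Trizol RNA, per the labels' protocols. What the authors deposited is a table of FPKM per gene, each library in a column of its own. The submitters' processing notes name cutadapt, TopHat2 (2.0.11) and Cufflinks (2.1.1). Build, annotation, filters and depth were not given in the sources used here.

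Groups and replicate numbers came from the sample titles. Values were taken as log2(FPKM + 1), which understates changes of low genes. The 10477 genes averaging 1 FPKM or more were fitted with limma 3.58.1 in R 4.3.3, with group as the only term and a mean-variance trend. Benjamini-Hochberg adjustment was used with a threshold of 0.05, and every difference is ICAM-1-/- minus WT. The fit was tested on simulated data whose spread was taken from replicates 2 and 3 alone. That test does not cover the spread that the replicate 1 libraries add. Deviations from group means correlated at 0.35, 0.13 and 0.31 between same-numbered libraries, all over 0.1, so the block is given where it moved a count, although ICAM-1-/- replicate 2 correlated at 0.15 with WT replicate 3 and ICAM-1-/- replicate 3 at 0.31 with WT replicate 2. Pairing by number was thus a choice made from the data. The labels state none, and these correlations do not establish it for replicates 2 and 3.

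The members and lists were chosen with earlier results of these data known. Named genes are the 10 members, genes among the 4 of highest mean FPKM in each list (for marker lists only some of these are described), and the 5 nearest in pattern per set (clone-like names and small RNA genes left out), apart from Gapdh, Xist, Ddx3y, markers listed at 0 and those said to be named later. Older symbols were matched through RefSeq. Promoter windows are RefSeq's on GRCm38.p6. They are independent of the authors' build. The alternatives tried concerned pseudocount, filter, scaling, trend, library weights, the block, near-zero values as missing, and leaving libraries out.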

Additional observations from a re-analysis of the deposited data

How the results depend on the processing

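The number of genes past limma's adjusted p of 0.05 was 0 with all 6 libraries. It stayed 0 with pseudocounts of 0.5 and 0.1 FPKM, with no filter or a mean of at least 5 FPKM, with median-of-ratios scaling, without small RNA genes, without the trend, and with near-zero values as missing. It was 4 with library weights, 13 with the replicate block and 3 within replicates 2 and 3, and 0 to 1 when each library was left out in turn, the 1 being without ICAM-1-/- replicate 1. The cause was not tested. None of the 10 genes and none of the 4 lists gave a call under any of these settings. Each of 168 alternative differences of the 10 genes lay within 1 within-group SD of its value over all libraries, an SD wide enough that this allowed changes of sign. Median-of-ratios scaling shifted the median of all genes to 0.24, beside -0.41 for the 10 genes. C1qa turned from 0.06 to -0.08 without small RNA genes, and Mertk stood at 0.57 with a pseudocount of 0.1 FPKM against -0.13. With near-zero values as missing, 4 of the 10 genes were fitted on fewer than 6 libraries, and Mrc1 stood at 0.22 and Siglec1 at 0.08. Without depth, values under about 1 FPKM, as for Mertk, Timd4 and Siglec1 outside replicate 1, carry no stated error.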

Other observations

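The globin genes of the erythroid list differed among themselves, and reads of their near-identical copies cannot be assigned with certainty. Beta-s, the older symbol of the adult beta-globin gene Hbb-bs, stood at 486, 11.7 and 39.4 FPKM in ICAM-1-/- recipients and at 1387, 25.7 and 46.0 FPKM in WT recipients, in the order of replicates 1, 2 and 3. Hbb-b2, another adult beta-globin gene, stood at 73.4, 7.15 and 9.48 FPKM in ICAM-1-/- and at 379, 0 and 0.0350 FPKM in WT. The alpha-globin gene Hba-a1 was instead near or at 0 in the replicate 1 libraries, with 0.0453, 0.0768 and 27.6 FPKM in ICAM-1-/- and 0, 19.3 and 43.8 FPKM in WT. Hba-a2 was listed at 0 in WT replicate 1 and stood at 69.8 FPKM in ICAM-1-/- replicate 1, and Hbb-b1 stood at 0.00627 FPKM in ICAM-1-/- replicate 1 and 0.00454 FPKM in WT replicate 1. Both genes were named after their values were seen. Tfrc, the transferrin receptor of erythroid precursors, stood at 24.1, 2.34 and 24.1 FPKM in ICAM-1-/- and at 55.8, 19.1 and 20.1 FPKM in WT, so it was high in WT replicate 1 and not set apart in ICAM-1-/- replicate 1. Klf1, an erythroid transcription factor named here after its values were seen, was listed at 0 in both replicate 1 libraries. Neutrophil granule genes had another order: Camp, an antimicrobial peptide gene, stood at 0, 3.75 and 96.0 FPKM in ICAM-1-/- and at 0.0987, 328 and 30.6 FPKM in WT.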
